A study of Mus musculus with 4 samples.

Results

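A set of 10 transcription factors of B cell and plasma cell fate was followed here in LPS-stimulated splenic B cells of the mouse. They are Prdm1, its 3 companions on the plasma cell side (Irf4, Xbp1 and Pou2af1) and 6 factors of the B cell state (Pax5, Bach2, Bcl6, Mitf, Spib and Ets1). They were picked by gene symbol, and all 10 were found among the 30041 genes of the deposited RNA-seq tables. The study compared 2 control samples with 2 samples from conditional knock-out mice, called cKO, in which Nfkbiz, the gene of the nuclear IκB protein IκB-ζ, is removed in B cells. Control mice were Nfkbiz fl/Δ, and so already carried 1 deleted allele and no Cre. The cKO mice were Nfkbiz fl/Δ Mb1cre/+, with Cre under the promoter of Cd79a, which is active throughout the B lineage. Presence of Cre and loss of the floxed allele therefore cannot be told apart. All mice were labelled C57BL/6, and their ages are not given in the sources used here. B cells had been purified from spleen by depletion of other cells and were cultured with LPS, a bacterial ligand of Toll-like receptor 4, for 72 h. The sources do not state whether the 2 samples of a group came from separate mice or cultures, so the p-values measure only the spread between these samples, which may be technical.

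Plasma cells are the antibody-secreting end of the B lineage, and LPS drives a part of cultured B cells towards them. Prdm1 encodes Blimp-1, the repressor that closes down the B cell programme. Irf4 at high levels and Xbp1 promote secretory differentiation, and Pou2af1 (OBF-1) is the B cell coactivator of octamer-binding proteins. On the other side, Pax5 keeps B cell identity, and Bach2 and Bcl6 repress Prdm1. Mitf, Spib and Ets1 also hold back differentiation in B cells. The factors of both sides repress each other, which is why they are read here as a network.

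Of the 10 factors, Prdm1 alone passed the test of cKO against control, and it fell to 0.122 of its control mean. It entered the test only through control 1, a sample of the group where it is high. Its adjusted p of 0.0429 became 0.203 without the filter on low scores, 0.05 without the variance trend and 0.0525 with quantile normalization, so the call was lost under each. Its expression was tested as log2(score + 0.0001), where the score is the authors' deposited expression value per gene. The unit of the score is not stated. Low scores multiplied by exon length fall mostly on steps of equal size, as values normalized for gene length and library size would, so levels of different genes are compared here on that inferred per-length scale. A call required an adjusted p under 0.05 in limma over the 9727 genes that reached a score of 0.005 in 1 or more samples. Of the 10 factors, 9 passed this filter, and Mitf did not. Lower calls were made for 1 of the 9 and for 1.25% of all genes tested. Higher calls were made for 0 of the 9 and for 0.812% of all genes. At an unadjusted p under 0.05 the factors counted 5 (Prdm1, Pou2af1, Bach2, Bcl6 and Ets1), against 22.3% of all genes. Among the 9, the cKO scores lay wholly below the control scores for 4 factors (Prdm1, Pou2af1, Pax5 and Spib) and wholly above for 4 (Irf4, Bach2, Bcl6 and Ets1). Over all genes tested these shares were 30.1% and 28.1%, so separation of the groups by itself was common. The median log2 fold change was 0.11 over the 9 factors and -0.01 over all genes. An exact permutation test on 2 against 2 samples cannot give a two-sided p below 0.33.

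**Figure D1:**
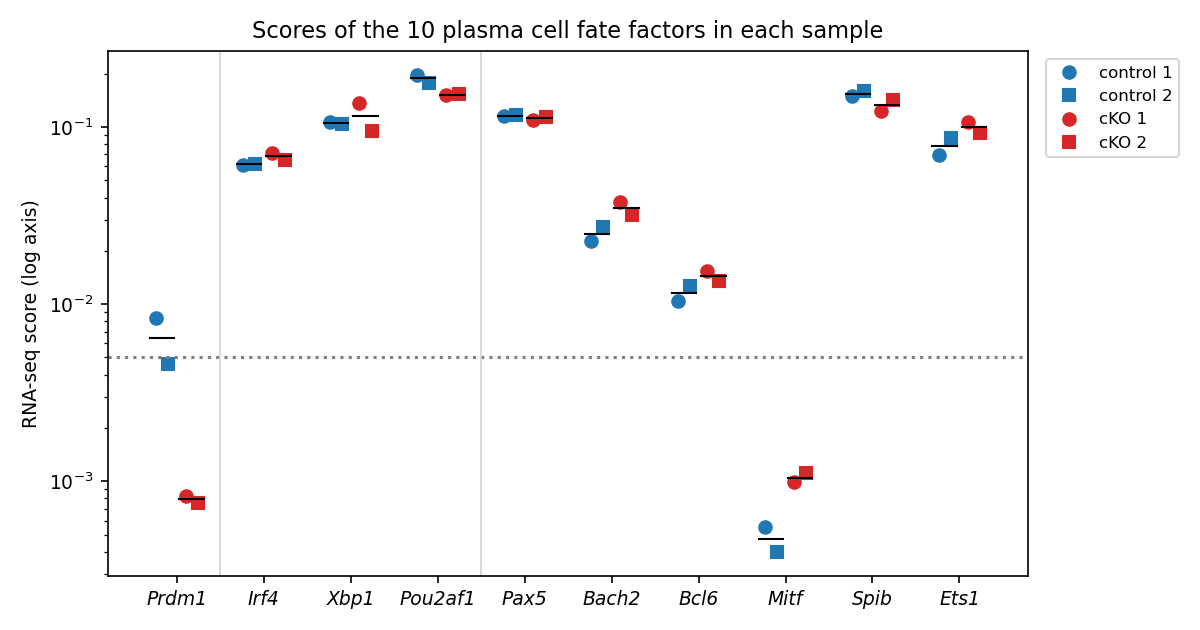
Deposited RNA-seq score (log axis, unit not stated) of the 10 factors in control (blue) and cKO (red) B cells; circles are replicate 1, squares replicate 2, black bars group means, and the dotted line the filter at 0.005. Prdm1 drops from 0.00835 and 0.00458 to 0.00083 and 0.00075, while among the other factors above the line the widest ratio of group means is 1.39, for Bach2.

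The targeted gene was checked first. Nfkbiz scored 0.02409 in control 1 and 0.02264 in control 2, against 0.0127 in cKO 1 and 0.01156 in cKO 2 (log2 fold change -0.94, SE 0.0956, limma adjusted p = 0.0282), in the direction of the labels. Summed scores were alike across the samples, between 604.2 and 637.6, and the step of the low scores gave an inferred depth of 17500000 to 19900000 reads. These read numbers may be too high, because score times exon length summed to 1550000 to 1590000, more than a value scaled per base and per sequenced read would give. The B cell markers were well expressed in every sample, with scores of 0.56518 to 0.78893 for Cd79b, 0.38686 to 0.45768 for Ms4a1 and 0.16944 to 0.22827 for Cd22. Of the myeloid markers, 3 of 10 passed the filter, and their list summed to 0.17 to 0.175 in control and 0.208 to 0.21 in cKO samples, most of it Itgam (0.1346 to 0.15802). Of the T and NK markers, 1 of 10 passed (Lck, which B cells can also express), and the sums were 0.0334 to 0.0457 in control and 0.0662 to 0.0726 in cKO samples. Erythroid markers, 2 of 5 past the filter, summed to 0.0133 in control 1, 0.00252 in control 2, 0.00227 in cKO 1 and 0.00184 in cKO 2. Control 1, through which Prdm1 passed the filter, thus stood apart in this list, and the part of this in the Prdm1 values was not tested. Neutrophil S100a9 and cytotoxic Gzma were at 0 in every sample. Their relatives were not all at 0, with S100a8 at 0.00101 and 0 in control and 0.00064 and 0.00015 in cKO samples, and Nkg7 at 0.00041 and 0.00033 in control and 0.00175 and 0.00124 in cKO samples.

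Prdm1 (Entrez 12142) spans 44156983 to 44248307 of chromosome 10 (minus strand) on NCBIM37, the assembly named mm9 by the genome browser. Its score was 0.00835 in control 1, 0.00458 in control 2, 0.00083 in cKO 1 and 0.00075 in cKO 2. Both cKO samples lay far below both control samples and within 1.11-fold of each other, whereas the control samples differed by 1.82-fold. The means were 0.00647 ± 0.00267 in control and 0.00079 ± 5.66e-05 in cKO B cells (SD, n = 2 each). The log2 fold change was -2.82 (SE 0.432, 95% interval -3.89 to -1.76, limma adjusted p = 0.0429). In bulk RNA fewer plasmablasts and less Prdm1 RNA per cell cannot be told apart. By the inferred step the scores stand for about 818, 461, 91 and 72 reads, so the cKO values were low but not at the floor. The adjusted p of Prdm1 was 0.0848 without control 1 (log2 fold change -2.40), 0.174 without cKO 1 and 0.0971 without cKO 2, and 0.00679 without control 2 (-3.25).

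Among all genes past the filter, those whose 4 values followed Prdm1 most closely, by Euclidean distance of centred log2 values over the 4 samples, included Cdkn2a, Ifi44, Gbp2 and Slc16a3. Cdkn2a, a cell cycle inhibitor locus, went from 0.04074 and 0.02131 to 0.00431 and 0.00526. The interferon-induced Gbp2 went from 0.07122 and 0.0465 to 0.00799 and 0.01241. Both share with Prdm1 the higher value in control 1 and both passed the test (limma adjusted p = 0.0294 for each). Slc16a3, a lactate transporter, also passed (limma adjusted p = 0.0347) after entering the test only through the control samples, where it is high. Ifi44, another interferon-induced gene, did not pass (limma adjusted p = 0.0519). Like Prdm1, Ifi44 entered the test only through control 1. Likeness here rests on 4 samples and was searched over all genes. The study lists Prdm1, Cdkn2a, Ifi44, Gbp2 and Slc16a3 among its own reduced genes in these samples. Their fall here is therefore not independent evidence.

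None of the 3 activators on the plasma cell side passed the test. Irf4 (Entrez 16364), the interferon regulatory factor that acts upstream of Prdm1, had scores of 0.06093 and 0.06207 in control and 0.07121 and 0.06539 in cKO B cells. The cKO samples were both slightly above the controls, with a log2 fold change of 0.15 (95% interval -0.06 to 0.36, limma adjusted p = 0.349). This interval does not reach that of Prdm1. Xbp1 (Entrez 22433), the driver of the secretory machinery, had scores of 0.10625 and 0.10426 in control and 0.13711 and 0.09436 in cKO samples. One cKO sample was above and the other below both controls, so the groups overlapped, and the log2 fold change was 0.11 (-0.32 to 0.54, adjusted p = 0.729). The score is given per gene, so the spliced and unspliced forms of Xbp1 were not separated. Without cKO 1 the value of Xbp1 was -0.16.

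Pou2af1 (Entrez 18985) had the highest score of the 10 factors in either group. It measured 0.19764 and 0.17797 in control and 0.15108 and 0.15304 in cKO samples, so both cKO samples lay below both controls. The ratio of the means was 0.81 and the log2 fold change -0.30 (SE 0.0862, 95% interval -0.51 to -0.09), which did not pass after adjustment (limma adjusted p = 0.137). Over the settings that leave out 1 sample the adjusted p ran from 0.0584 to 0.544.

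The 6 B cell state factors were not called, and their values pointed in different directions. Pax5 (Entrez 18507), the guardian of B cell identity, was almost level, at 0.11481 and 0.11736 in control and 0.10948 and 0.11399 in cKO samples (log2 fold change -0.06, 95% interval -0.25 to 0.14, limma adjusted p = 0.696). It had the narrowest interval of the state factors. Spib (Entrez 272382), an Ets family factor of B cells, had 0.14886 and 0.15888 in control and 0.12388 and 0.14171 in cKO samples. All control values were above the cKO values, with a log2 fold change of -0.21 (-0.45 to 0.03, adjusted p = 0.263).

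Bach2 and Bcl6, named above as repressors of Prdm1, had higher scores in cKO B cells without passing the test. Bach2 (Entrez 12014) had 0.02266 and 0.0273 in control and 0.0376 and 0.03195 in cKO samples. Its groups did not overlap, the ratio of the means was 1.39 and the log2 fold change 0.48 (SE 0.131, 95% interval 0.15 to 0.80, limma adjusted p = 0.128). Bcl6 (Entrez 12053), the repressor of the germinal centre reaction, had 0.01042 and 0.01264 in control and 0.01541 and 0.01356 in cKO samples, a ratio of 1.26 (log2 fold change 0.33, 0.01 to 0.65, adjusted p = 0.217). Ets1 (Entrez 23871), which restrains Blimp-1 activity, had 0.06913 and 0.08684 in control and 0.10652 and 0.09226 in cKO samples, a ratio of 1.27 (log2 fold change 0.36, 0.02 to 0.69, adjusted p = 0.212). All 3 had their lowest value in control 1, the sample with the most Prdm1, and their highest value in cKO 1. The activator Irf4 had the same order, with 0.06093 in control 1 and 0.07121 in cKO 1. The least Prdm1 was in cKO 2 (0.00075) and not in cKO 1 (0.00083). Without control 2 the log2 fold changes of Bach2 and Ets1 were 0.61 (adjusted p = 0.0415) and 0.52 (adjusted p = 0.0461), and both then passed. Without control 1 the values were smaller, at 0.34 for Bach2 (adjusted p = 0.279), 0.19 for Bcl6 (0.569) and 0.19 for Ets1 (0.519). Without cKO 1 they were 0.36, 0.24 and 0.25 (adjusted p = 0.554, 0.709 and 0.698).

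Mitf (Entrez 17342), better known from pigment and mast cells and a brake on Irf4 in resting B cells, was the least expressed factor in control samples. It was at 0.00055 and 0.0004 in control and 0.00099 and 0.00112 in cKO samples, about 61 and 46 against 123 and 122 inferred reads. Both cKO samples were above both controls, and the ratio of the means was 2.22. No sample reached the filter, so Mitf was read from the fit over all 21582 genes above 0 (log2 fold change 1.02, 95% interval 0.31 to 1.72, unadjusted p = 0.0161, limma adjusted p = 0.263). No gene of any kind was called in that fit, where 3203 genes had an unadjusted p under 0.05. Markers of pigment and mast cells (Tyr, Dct, Mlana, Kit, Cpa3 and Ms4a2) summed to 0.00276 and 0.00193 in control and 0.00232 and 0.00347 in cKO samples, with Mlana and Cpa3 at 0 in every sample. Among them Kit, a receptor of mast cells and progenitors, was higher in both cKO samples, at 0.00048 and 0.00146 against 0.00013 and 8e-05 in control samples. Tyr overlapped between the groups, and Dct and Ms4a2 were above 0 only in control 1. The part of Kit in the Mitf values was not tested. Of the other markers, myeloid Lyz2 had 0.02052 and 0.01124 in control and 0.04852 and 0.03292 in cKO samples. Within the cKO pair Lyz2 was higher in cKO 1, whereas Mitf, which macrophages also express, was higher in cKO 2. Lyz1, Csf1r, Cd14 and Emr1 were also higher in both cKO samples, while Itgam, Fcgr1, S100a8 and Mpo overlapped. The part of the myeloid markers in the Mitf values was not tested either.

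**Figure D2:**
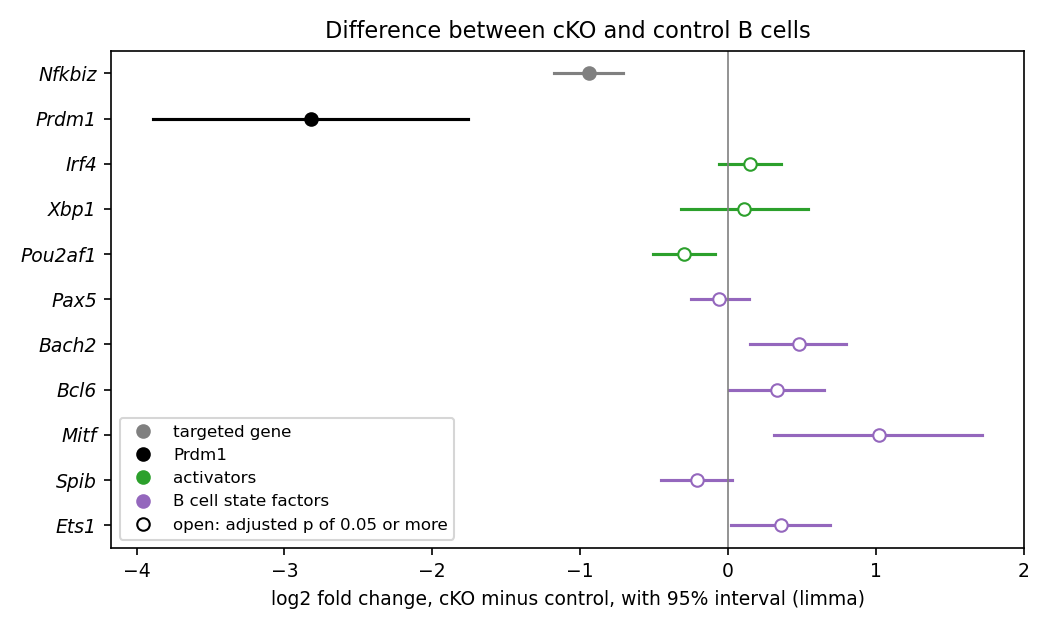
Log2 fold change of each factor in cKO relative to control B cells on the log2(score + 0.0001) scale, with limma's 95% intervals (2 samples in each group; Mitf from the fit without a filter). The Prdm1 interval, -3.89 to -1.76, lies apart from those of the other 9 factors.

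In control B cells the order of the mean scores ran from Pou2af1 through Spib, Pax5, Xbp1, Ets1, Irf4, Bach2, Bcl6 and Prdm1 to Mitf, and every pair of neighbours was separate in both samples. In cKO B cells the samples of Pax5 and Xbp1, of Xbp1 and Ets1, and of Prdm1 and Mitf no longer had non-overlapping values in that order. The change at the bottom of the order was the clearest. The log2 ratio of Prdm1 to Mitf was 3.70 and 3.23 in control and -0.23 and -0.52 in cKO samples, so Prdm1 was above Mitf in control and below it in cKO samples. Against Bach2 the log2 ratio of Prdm1 was -1.43 and -2.55 in control and -5.34 and -5.24 in cKO samples. Against Bcl6 it was -0.32 and -1.44 and then -4.06 and -4.01. These ratios mostly repeat the fall of Prdm1 itself, which is their numerator, and are given without a test.

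**Figure D3:**
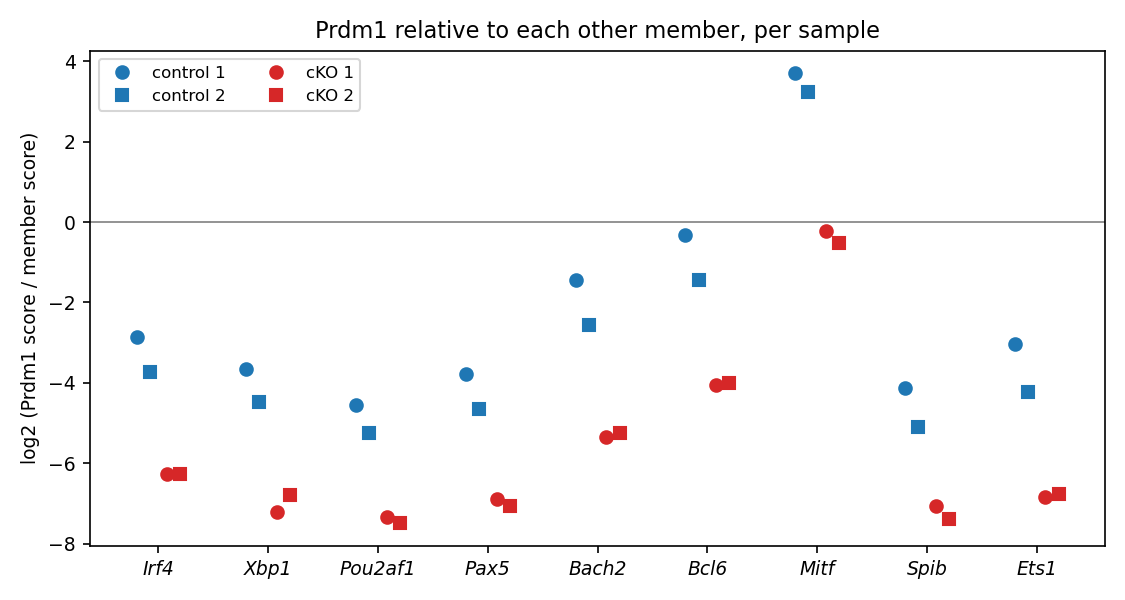
Log2 ratio of the Prdm1 score to that of each other factor in every sample (blue control, red cKO; pseudocount 0.0001 in both terms). Prdm1 exceeds Mitf in control samples (3.70 and 3.23) and falls below it in cKO samples (-0.23 and -0.52), and each control value lies above each cKO value for all 9 factors.

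Leaving Prdm1 aside, the balance of the remaining network was lower in both cKO samples than in both control samples. The mean log2 value of Irf4, Xbp1 and Pou2af1 minus that of the 6 state factors was 2.19 and 2.03 in control and 1.87 and 1.69 in cKO samples, a difference of -0.33 that is given without a test. Without Mitf, whose low score weighs as much as any other here, the values were 1.15 and 0.90 against 0.90 and 0.76, and the groups touched. Irf4 relative to Bach2 was 1.42 and 1.18 in control and 0.92 and 1.03 in cKO samples on the log2 scale, while relative to Pax5 it was -0.91 and -0.92 and then -0.62 and -0.80. Pou2af1 relative to Bach2 was 3.12 and 2.70 in control and 2.00 and 2.26 in cKO samples. Over all 6 state factors, the mean log2 ratio of Irf4 was lower in cKO samples against 4 (Bach2 -0.33, Bcl6 -0.18, Mitf -0.87 and Ets1 -0.21) and higher against 2 (Pax5 0.21 and Spib 0.36), with no test.

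The bases before 4 annotated starts are shown. Prdm1 was called, and Bach2 and Pou2af1 had the next lowest adjusted p in limma of the 9 factors. Bcl6 was added because it was named above with Bach2 as a repressor of Prdm1. Each is the 250 bases before a start annotated by RefSeq on GRCm38.p6, and each was placed by its single exact match on NCBIM37, at chr10:44178555-44178804 (minus strand), chr9:51021545-51021794 (plus strand), chr4:32504160-32504409 (plus strand) and chr16:23981370-23981619 (minus strand, the second of 2 Bcl6 starts). The windows of Prdm1, Bach2 and Bcl6 lie inside the span of the gene as GENCODE annotates it, outside its exons, and that of Pou2af1 ends just before the annotated start. Capitals mark the matches to the motifs listed after them.
Prdm1: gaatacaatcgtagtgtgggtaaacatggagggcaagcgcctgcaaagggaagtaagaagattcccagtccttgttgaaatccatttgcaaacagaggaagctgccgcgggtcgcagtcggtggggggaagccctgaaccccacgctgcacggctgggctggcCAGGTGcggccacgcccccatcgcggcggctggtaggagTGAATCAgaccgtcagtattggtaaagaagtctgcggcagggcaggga
Pou2af1: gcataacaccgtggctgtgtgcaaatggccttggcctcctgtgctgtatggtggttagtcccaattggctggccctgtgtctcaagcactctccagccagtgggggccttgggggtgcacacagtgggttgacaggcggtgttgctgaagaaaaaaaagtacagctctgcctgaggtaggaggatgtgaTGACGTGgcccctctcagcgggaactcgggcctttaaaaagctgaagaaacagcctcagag
Bach2: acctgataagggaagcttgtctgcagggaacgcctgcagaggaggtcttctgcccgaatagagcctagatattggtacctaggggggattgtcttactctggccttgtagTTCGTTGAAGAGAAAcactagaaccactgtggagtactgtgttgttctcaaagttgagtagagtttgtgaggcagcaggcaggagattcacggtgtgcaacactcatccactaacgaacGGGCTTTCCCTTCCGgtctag
Bcl6: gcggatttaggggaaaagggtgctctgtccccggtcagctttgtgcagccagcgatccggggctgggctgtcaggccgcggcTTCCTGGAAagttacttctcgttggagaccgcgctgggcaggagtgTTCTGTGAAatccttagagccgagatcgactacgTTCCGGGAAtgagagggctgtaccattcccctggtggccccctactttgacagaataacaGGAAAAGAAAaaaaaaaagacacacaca

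In all, 10 motifs were searched on both strands in 12 promoters of 9 factors (Ets1 was not among them), and positions count back from the start, whose preceding base is -1. They were picked with the windows in view and several other patterns were dropped, so a match is a description and not a site. Prdm1 holds the AP-1 type motif TGANTCA from -48 to -42, which is found in 6.75% of all 32851 promoters of this length, and the E-box CANGTG from -87 to -82 (39.51% of promoters). Pou2af1 holds TGACGTG, a motif of Xbp1 and CRE-binding factors, from -61 to -55 (1.65%). The second Bcl6 promoter holds TTCNNNGAA, the shape bound by Bcl6 and STAT proteins, at 3 places starting at -168, -122 and -88, and the first holds it once at -118 (7.02% of promoters hold at least 1). Bach2 has TTCNNNGAA from -140 to -132, overlapped by an AANNGAAA match of IRF type from -133 to -126. Close to its start Bach2 also has a chain of matches, each overlapping the next, to GGGNNTTCC of NF-kB type from -21 to -13 (4.98%), to AANNGAAA of IRF type from -17 to -10 (21.31%), to GGAANNGAA of Ets-IRF type from -16 to -8 (6.99%) and to CGGAAG of Ets type from -12 to -7 (13.59%). The last Bcl6 match, GGAANNGAA from -28 to -20, also overlaps an AANNGAAA match. The Blimp-1 core AAGTGAAA, which always also matches AANNGAAA, and the octamer ATGCAAAT were found in none of these 12 windows, against 1.36% and 1.6% of all promoters.

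**Figure D4:**
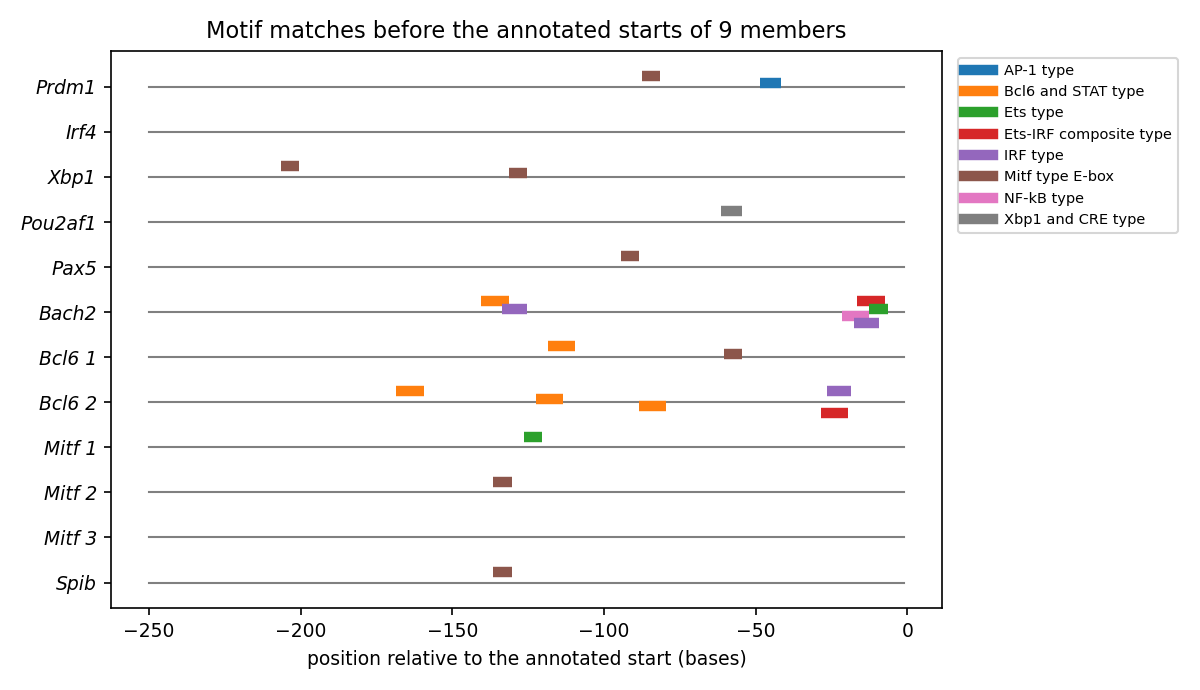
Positions of motif matches (coloured bars, either strand) in the 250 bases before each of 12 annotated starts of 9 factors; the x axis is the distance to the start in bases. Bach2 carries a chain of 4 matches between -21 and -7, and the second Bcl6 start 3 matches of the Bcl6 and STAT type.

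The partners of the factors were read from a list of 25 genes, all found and 22 past the filter. Of these, 2 fell and 0 rose in limma, beside 1.25% and 0.812% of all 9727 genes tested. An unadjusted limma p under 0.05 was reached by 6 partners in each direction, beside 1117 lower and 1052 higher of all genes. The median log2 fold change was 0.04, beside -0.01 over all genes. Batf, the AP-1 family partner of Irf4, fell from 0.06078 and 0.05609 to 0.02969 and 0.03032 (log2 fold change -0.96, SE 0.0858, adjusted p = 0.0215). Pou2f2 (Oct-2), the octamer-binding partner of Pou2af1, fell from 0.06402 and 0.05832 to 0.03642 and 0.03669 (-0.74, SE 0.0873, adjusted p = 0.0306). For both, the cKO values were close together and well below the controls. Irf4 and Pou2af1 themselves had log2 fold changes of 0.15 and -0.30, and the differences between partner and factor were not tested.

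The other partners did not pass. Pou2f1 (Oct-1), the ubiquitous octamer protein, had a log2 fold change of 0.19, and Sfpi1 (PU.1), the Ets partner of Irf4, one of 0.04. Within the AP-1 family, Junb had -0.42 (adjusted p = 0.113), Jun -0.08 and Jund 0.29, so these relatives of Batf were split in sign. The small Maf proteins, which pair with Bach2, had 0.39 (Mafk) and 0.20 (Mafg). Corepressors used by Bcl6 included Bcor at -0.14, Ncor1 at 0.30 and Mta3 at 0.41. Chromatin enzymes that work with Blimp-1 ranged from -0.45 for Prmt5 to 0.10 for Ehmt2. Of the stress sensors on the Xbp1 side, Atf6 had 0.02941 and 0.02649 in control and 0.02128 and 0.01998 in cKO samples (-0.44, adjusted p = 0.0929). Ern1 (IRE1α), which splices Xbp1 mRNA, stayed under the filter, with 0.00386 and 0.00333 in control and 0.00223 in both cKO samples. The relatives of Mitf were at 0.36 for Tcfe3 and -0.31 for Tcfeb.

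Among 18 other B cell transcription factors, all past the filter, 1 rose and 0 fell in limma, beside 0.812% and 1.25% of all genes. Of the 18, 5 were lower and 2 higher at an unadjusted limma p under 0.05, beside 1117 and 1052 of all 9727 genes. The median of the 18 was 0.08. Id2, an inhibitor of E proteins, rose from 0.00358 and 0.00356 to 0.00989 and 0.01088 (log2 fold change 1.51, SE 0.139, adjusted p = 0.0215). Both control values were under the filter, so Id2 entered the test only through the cKO samples, where it is high. Id2 is also expressed in innate immune cells. The myeloid and T and NK sums given above were also higher in cKO samples, and their part in the Id2 values was not tested.

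The programmes downstream of the factors were counted the same way. Of 24 genes of the mature B cell programme, all past the filter, 2 fell and 0 rose, beside 1.25% and 0.812% of all genes. Of the 24, 8 were lower and 3 higher at an unadjusted limma p under 0.05, beside 1117 and 1052 of all 9727 genes. The median of the 24 was -0.03. Cd79a, a Pax5 target whose promoter also drives Cre in the cKO mice, fell from 0.66695 and 0.74312 to 0.41541 and 0.40714 (-0.78, adjusted p = 0.0294). Only the cKO mice carry the Mb1cre allele, and its part in the Cd79a values was not tested. Fcer2a (CD23), the low-affinity IgE receptor of mature B cells, fell from 0.30046 and 0.3128 to 0.1607 and 0.19952 (-0.78, adjusted p = 0.0428).

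Of 22 genes of the plasma cell programme, 20 passed the filter. In limma 4 fell and 0 rose, beside 1.25% and 0.812% of all genes. Of the 20, 10 were lower and 3 higher at an unadjusted limma p under 0.05, beside 1117 and 1052 of all 9727 genes. The median log2 fold change of the 20 was -0.29, beside -0.01 over all genes. Derl3, an endoplasmic reticulum degradation factor, fell from 0.00935 and 0.00573 to 0.00171 and 0.00216 (-1.88, SE 0.303, adjusted p = 0.0485). Eaf2, an elongation factor partner, fell from 0.01417 and 0.01049 to 0.00528 and 0.00553 (-1.16, adjusted p = 0.0383). Cd93, a receptor of long-lived plasma cells, fell from 0.00882 and 0.00801 to 0.00435 and 0.00399 (-1.0, adjusted p = 0.04). Derl3 and Cd93 were under the filter in both cKO samples and entered the test only through the control samples, where they are high. The study lists Derl3, Eaf2 and Cd93 among its own reduced genes in these samples, so they are not independent evidence of the list's direction.

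Of 22 Xbp1 targets, 21 passed the filter and 3 fell with 0 rising, beside 1.25% and 0.812% of all genes. Of the 21, 9 were lower and 0 higher at an unadjusted limma p under 0.05, beside 1117 and 1052 of all 9727 genes. The median of the 21 was -0.25, and 16 of the 21 were below 0, against 51.8% of all genes. The list shares 8 genes with the plasma cell list, among them Derl3 and Creld2. Creld2, an endoplasmic reticulum chaperone-like protein, fell from 0.02234 and 0.01936 to 0.01225 and 0.01157 (-0.80, adjusted p = 0.0345). Serp1, which stabilizes membrane proteins in the endoplasmic reticulum, fell from 0.37131 and 0.32946 to 0.23199 and 0.21815 (-0.64, adjusted p = 0.0383). Xbp1 mRNA itself had a log2 fold change of 0.11 with overlapping groups. In the fit without the filter, and in the fits without cKO 1 or without cKO 2, limma called 0 genes of any kind, so every call in these lists was lost there. At an unadjusted p under 0.05 there were 519 lower and 428 higher genes without cKO 1, and 982 and 767 without cKO 2.

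**Figure D5:**
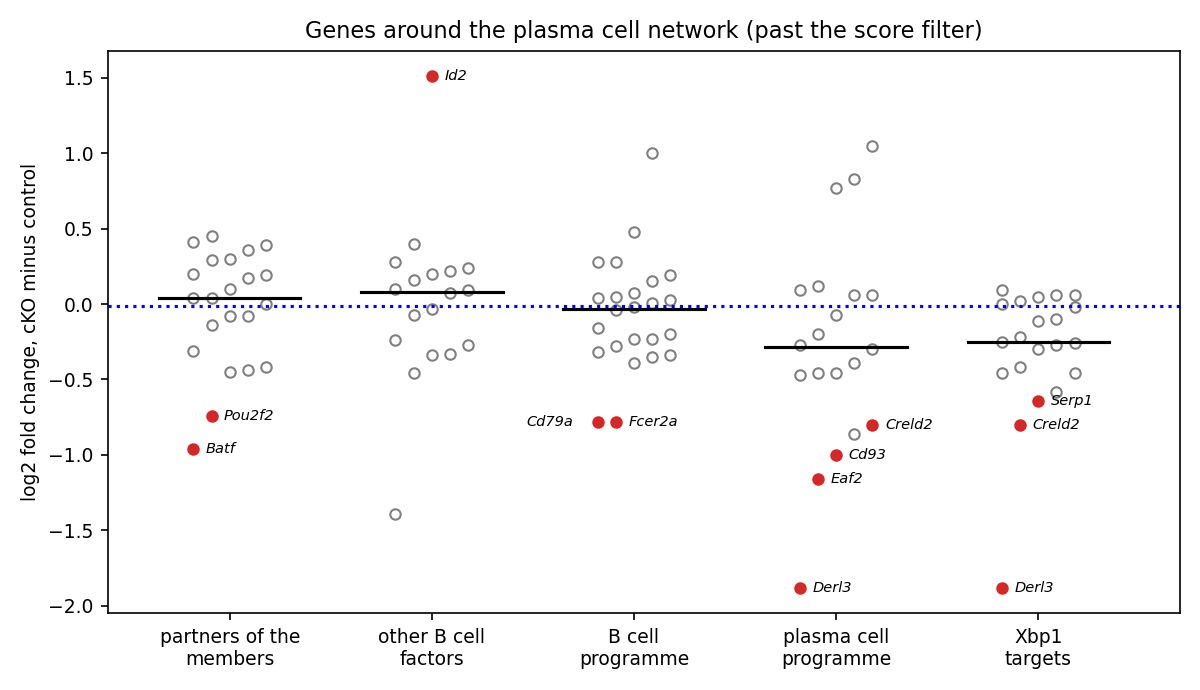
Log2 fold change (cKO minus control) of the genes of 5 lists that passed the filter; red points passed limma's adjusted p under 0.05, open points did not, black bars are list medians and the blue dotted line is the median of all genes. Medians are -0.29 for the plasma cell programme and -0.25 for Xbp1 targets, and between -0.03 and 0.08 for the other lists.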

How the data were processed

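Poly(A) RNA of 2 control and 2 cKO samples had been sequenced on an Illumina instrument. Reads of high base quality were aligned by the authors to mm9 using TopHat 2.0 at default settings, and BED Tools served to discard rRNA and tRNA. The deposited score covers 30041 genes in each sample. How mapped reads became the score, and its unit, are not given in the sources used here. The submitters' processing notes also name CASAVA 1.8, Bowtie and SAMtools. The LPS concentration is 20 mg/ml in the labels and 20 μg/ml in the methods.

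The deposited score was analysed as log2(score + 0.0001) in genes that reached 0.005 in 1 or more samples. The model was limma's (version 3.58.1, R 4.3.3), with a variance trend, Benjamini-Hochberg adjustment over all 9727 genes and a threshold of 0.05. The scripts were tested on simulated data. Read numbers were inferred from the step of low values (score times exon bases under 0.4), of which 75.4 to 82.1% lay within 0.2 of a step. Python 3.11.15 with pandas 2.3.3 made the tables.

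Members and gene lists were chosen with earlier results of these data known. Named are the members, Nfkbiz, partners by their values, in each list up to 3 falling and 3 rising called genes whose groups do not overlap, and the 5 genes closest to Prdm1. Some genes that this rule or the lists cover are not reported here. Older symbols were matched by Entrez identifier. Same-numbered samples are not stated to be paired (correlation -0.145), so no block was used. Gene positions are from GENCODE on NCBIM37. Alternatives changed the pseudocount, filter, variance model, scaling, block and samples.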

Additional observations from a re-analysis of the deposited data

How the results depend on the processing

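The reported limma fit called 122 genes lower and 79 higher. Without the filter 0 and 0 were called (1538 and 1665 at an unadjusted p under 0.05), without the variance trend 22 and 11, and with the filter above 0.05 the higher calls were 35. A fit that took the replicate number as block gave 180 and 177, and with crossed numbers, a pairing added after seeing the data, 230 and 212. Leaving out 1 sample gave 0 to 391 lower and 0 to 439 higher calls, with 0 without cKO 1 or cKO 2 and the highest counts without control 2. Of the factors, 1 was called lower in the reported fit, and 0 with the filter above 0.05 (which removes Prdm1), without the filter, without the trend or with quantile normalization, and 0 to 1 with 1 sample left out. The adjusted p of Prdm1 was 0.203 without the filter, 0.05 without the trend, 0.0525 with quantile normalization and 0.0222 with the block. With 0.001 as pseudocount its log2 fold change was -2.01, and otherwise -3.25 to -2.40. No factor was called higher in the reported fit, against 1 with the crossed block (Bach2) and 0 to 2 with 1 sample left out. The sign turned for Xbp1 without cKO 1 (-0.16, and 0.38 without cKO 2) and for Pax5 with quantile normalization (0.03). The balance of activators and state factors was -0.33 as reported, -0.19 without Mitf and -0.41 without Irf4. Of 105 values of single factors under the alternatives, 94 kept direction and side of the threshold, 6 lost and 3 gained the call and 2 turned sign. The causes were not tested. A fit with 1 sample in a group assumes that it varies like the other group. Depth limits Mitf and the cKO values of Prdm1 most.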

Other observations

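Some surface genes tied to plasma cells had higher scores in cKO B cells although Prdm1 fell. They were chosen after their values were seen, and none passed limma's adjusted threshold. Sdc1, which encodes the plasma cell marker CD138, had 0.00398 and 0.00418 in control and 0.00814 and 0.00604 in cKO samples (log2 fold change 0.77, 95% interval 0.29 to 1.25, limma adjusted p = 0.116). Both control values were under the filter, so Sdc1 entered the test only through the cKO samples, where it is high. By flow cytometry the study reports the opposite direction for the protein, with less CD138 on cKO B cells after culture with LPS. The score is of bulk RNA, and the difference between RNA and protein was not tested. Cxcr4, the chemokine receptor that guides plasma cells to the bone marrow, had 0.04273 and 0.06175 in control and 0.12179 and 0.09294 in cKO samples (1.05, adjusted p = 0.076). Slamf7 had 0.0264 and 0.03728 in control and 0.05846 and 0.05331 in cKO samples (0.83, adjusted p = 0.0793). All 3 are also expressed by other cells than plasma cells.

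Among genes with lower scores in cKO B cells, Igj, the joining chain of secreted IgM and IgA, had 0.13385 and 0.07827 in control and 0.05523 and 0.05721 in cKO samples (log2 fold change -0.86, limma adjusted p = 0.13). Zbtb32, from the list of other B cell factors and among the study's own reduced genes, had 0.07413 and 0.04684 in control and 0.01863 and 0.02696 in cKO samples (-1.39, limma adjusted p = 0.0686). Like Prdm1, both were higher in control 1 than in control 2. In the 3 surface genes control 1 had the lowest value of the 4 samples.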
